A study of Mus musculus with 4 samples.

Results

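The Cyp3a family was followed in mouse liver through the 8 genes that the array names as members: Cyp3a11, Cyp3a13, Cyp3a16, Cyp3a25, Cyp3a41a, Cyp3a44, Cyp3a57 and Cyp3a59. Members were taken by gene name from the probes that are not controls, which gave 8 probes of 56605, 1 for each of 8 genes among 37021. The study used wild-type C57BL/6 mice that were 6 weeks old, dosed intraperitoneally on 5 days a week for 3 weeks with aristolochic acid I (AAI), a plant nephrotoxin and carcinogen that the liver can both activate and detoxify, or with the corn oil vehicle. Females received 5 mg/kg/day AAI and males 2 mg/kg/day, and corn oil mice of each sex were the controls. Liver RNA from 5 mice of a group was mixed in equal amounts and hybridized to 1 array, so that 4 arrays of 1 group each were measured. Differences between mice were averaged before the measurement, no value has a replicate error and no test was possible.

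Cytochromes P450 of the Cyp3a family are heme enzymes of the endoplasmic reticulum of hepatocytes that oxidize steroids, bile acids and a large share of drugs, with electrons delivered by P450 oxidoreductase. Their genes are switched on by the xenobiotic receptors PXR (Nr1i2) and CAR (Nr1i3), together with liver factors such as HNF4α. In mouse liver several members differ with sex under the control of growth hormone, and Cyp3a41a and Cyp3a44 are known as female forms, while Cyp3a16 is known from fetal and early postnatal liver.

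On mouse genome build mm9, 7 of the 8 probes lay on chromosome 5 within 769.4 kb, in the order Cyp3a57, Cyp3a16, Cyp3a41a, Cyp3a44, Cyp3a11, Cyp3a25 and Cyp3a59. Cyp3a13 lay apart, 7815.9 kb away. The probes are 60 bases long and their exact targets decide which family members each signal can hold, so the parts that show this are printed here, 5′ to 3′ in the sense direction. They cover the coding stretch whole and otherwise the first 30 bases. Capitals mark the bases that differ between the probes of Cyp3a25 and Cyp3a57 where these overlap.
Cyp3a57: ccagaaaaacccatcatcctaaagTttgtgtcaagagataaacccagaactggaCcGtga
Cyp3a25: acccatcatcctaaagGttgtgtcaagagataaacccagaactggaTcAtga
Cyp3a11: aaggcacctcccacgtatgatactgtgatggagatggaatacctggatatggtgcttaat
Cyp3a59: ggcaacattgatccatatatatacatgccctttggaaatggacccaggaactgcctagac
Cyp3a16: gatgcagtcataactggagcgtgattttcc
Cyp3a41a: actggttctcatgggaccatctccatccac
Cyp3a44: cactgagctttctcagtgtctgtgcaagtt
Cyp3a13: cctgtggaccagaaaccaattcatattgtg

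The probes of Cyp3a57 (NM_001100180, chr5:146151322-146151381, plus strand) and Cyp3a25 (NM_019792, chr5:146789175-146789234, minus strand) overlap over 52 bases that end on a stop codon, of which 49 match and 3 differ. Their longest shared run is 29 bases. No other probe on the array shared 20 bases in a row with a Cyp3a probe, on either strand. The Cyp3a11 probe (NM_007818, chr5:146672058-146673925, minus strand) spans 1868 bases of the genome because it crosses an intron, and has a reading frame with no stop codon. The design file lists 4 transcripts for it, those of Cyp3a11, Cyp3a41a, Cyp3a41b and Cyp3a44, so its signal is that of up to 4 genes. The Cyp3a41a probe (NM_017396, chr5:146505792-146505851, minus strand) is listed for both Cyp3a41a and Cyp3a41b, which has no probe under its own name. The Cyp3a25 probe is listed for Cyp3a59 as well. The probes of Cyp3a44 (NM_177380, chr5:146585717-146585776, minus strand), Cyp3a16 (NM_007820, chr5:146197274-146197333, minus strand), Cyp3a59 (NM_001105160, chr5:146920638-146920697, plus strand), Cyp3a57 and Cyp3a13 (NM_007819, chr5:138335412-138335471, minus strand) are listed for 1 RefSeq gene each. No probe on the array has more than 4 accessions listed, and further matches are therefore possible.

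Signals are given as log2 of the spot intensity after quantile normalization over the 4 arrays, in the order corn oil females, AAI females, corn oil males and AAI males. Each Cyp3a probe was spotted once per array. As a yardstick for a log2 ratio, the median SD between different probes of 1 gene was used. It was 0.25 for AAI over corn oil in females (9122 genes), 0.24 in males (8604 genes) and 0.23 for corn oil males over corn oil females (8889 genes). This SD leaves out errors shared by all probes of an array, such as those of labelling or hybridization, so it is not the full error of a ratio. Probes spotted at least 8 times on an array, none of them a Cyp3a probe, had a smaller median SD of 0.05 to 0.08 between their spots. All 8 probes were well above background on every array, but the Cyp3a44 spot of AAI males was replaced by the background in the files and was given no level.

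Cyp3a44, a female form of the family, was the member with the widest range. Its log2 signal was 10.54 in corn oil females, 7.07 in AAI females and 5.02 in corn oil males. Before normalization the intensities were 1450, 144 and 32.3. The array of corn oil females was thus the high one, AAI females stood in between and corn oil males were lowest. The log2 ratio of AAI over corn oil was -3.47 in females, an 11.1-fold lower signal, and the signal of corn oil males was 45.9-fold below that of corn oil females. With normexp background correction and its added offset of 50, these log2 ratios were smaller, -2.83 and -3.71 in place of -3.47 and -5.52. An offset of this size by itself shrinks ratios of spots as dim as 32.3 or 144, so that both folds move with this choice. Both differences remained more than 10 times the SD between probes, which leaves out errors shared by a whole array.

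The other 7 members were among the brightest probes of the array, from the 95.83 to the 99.92 percentile of all probes, and they spanned a far narrower range. Cyp3a16 is known from early life, yet its probe was bright in these mice, which were past that age. Its log2 signals were 16.75, 16.09, 17.14 and 15.91. Both AAI arrays were below both corn oil arrays, with a log2 ratio of -0.66 in females and of -1.23, a 2.35-fold lower signal, in males. Cyp3a11, a major hepatic drug-metabolizing form and a standard readout of PXR, had 16.21, 16.28, 16.56 and 15.47. The AAI male array was the lowest of the 4, with a log2 ratio of -1.10 (2.14-fold lower) against 0.07 in females, a value within the SD between probes.

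Cyp3a41a is known as the other female form, but its probe was not higher in corn oil females than in corn oil males. Its log2 signals were 18.20, 17.97, 18.37 and 17.52, the ratio being -0.23 in females and -0.85 in males. Cyp3a59 had 16.23, 15.98, 16.60 and 15.74, with ratios of -0.25 and -0.86. For both genes the ratio in females was within the SD between probes and the AAI male array was the lowest of the 4. Cyp3a57 had 15.02, 14.93, 15.42 and 15.02, with ratios of -0.09 in females and -0.40 in males. Cyp3a25 had 15.50, 15.35, 15.82 and 15.65, with ratios of -0.14 and -0.18, neither beyond the SD between probes. The probes of Cyp3a25 and Cyp3a57, close to each other in sequence, thus had small ratios in females. Cyp3a59 transcripts are listed for the Cyp3a25 probe too, yet the 2 probes gave ratios of -0.18 and -0.86 in males.

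Cyp3a13, the member that lies outside the gene cluster and is known as a more widely expressed form, moved the other way in males. Its log2 signals were 13.84, 13.74, 13.47 and 14.15, the AAI male array being the highest. The log2 ratio was -0.10 in females and 0.69 in males (1.61-fold higher).

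**Figure D1:**
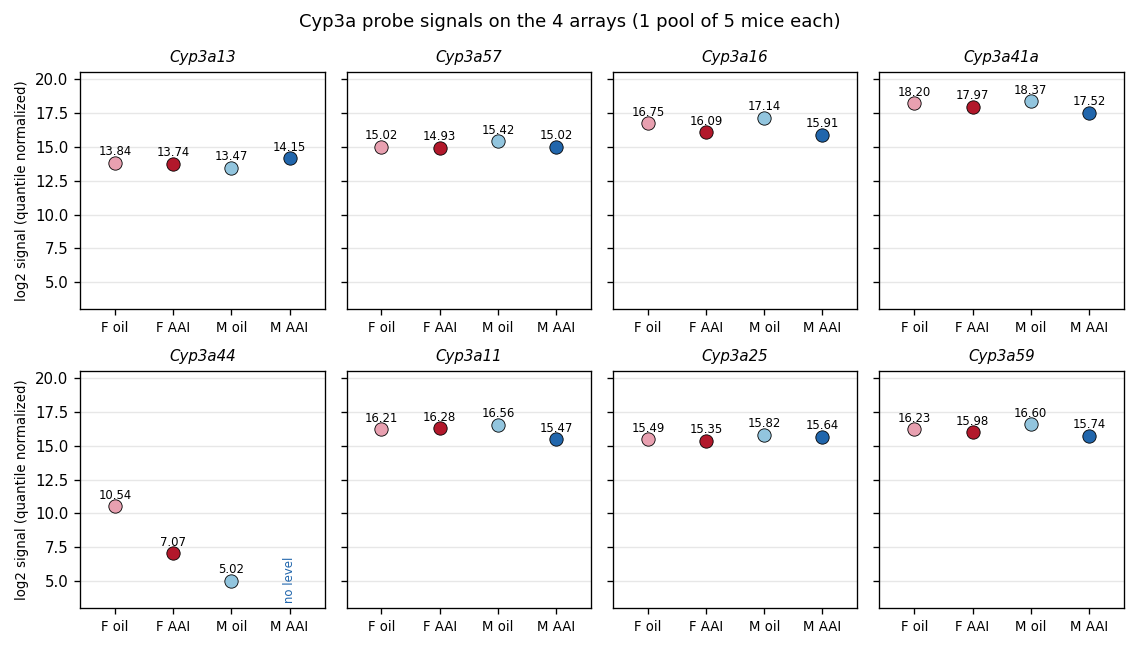
Log2 signal after quantile normalization (y axis) of each Cyp3a probe on the 4 arrays (x axis; F female, M male, oil corn oil), 1 point per array of pooled RNA from 5 mice, panels in the order of the probes along the chromosome. Cyp3a44 ran from 10.54 in corn oil females to 5.02 in corn oil males with no level in AAI males, whereas the other 7 probes lay between 13.47 and 18.37.

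Counted at 2-fold, 1 of the 8 members, Cyp3a44, was lower in AAI females than in corn oil females, against a background of 3.08% of the 31662 genes measured. None was at least 2-fold higher, against 1.35% of genes. With the arrays scaled to their 75th percentile the background calls were 738 lower and 614 higher, in place of 974 lower and 426 higher. In males 2 of the 7 members with a level, Cyp3a11 and Cyp3a16, were at least 2-fold lower in the AAI pool, against 4.52% of 30494 genes, and none was at least 2-fold higher, against 3.48%. These 7 members had a log2 signal of at least 13.468 on every array. Among the 1817 genes that did so, 25 (1.38%) were at least 2-fold lower in AAI males. Genes that fell below this level in AAI males were left out by that rule. Cyp4a12b, for example, was at 13.92 in corn oil males and 9.49 in AAI males. The share of 1.38% is therefore biased low and cannot be set against the 2 of 7 members. The call of Cyp3a11 was lost when the arrays were scaled to their median or 75th percentile instead, its ratio lying between -1.12 and -0.89 over 7 alternatives.

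Whatever the size of the change, 7 of 8 members had a ratio under 0 in females and 6 of 7 in males, where 46.5% and 48.1% of all genes did. In females only Cyp3a44 (-3.47) and Cyp3a16 (-0.66) were beyond the SD between probes. In males the ratio of Cyp3a25 took the other sign under 2 alternatives. Some probes are listed for several members, so the signs are not independent of each other. The median log2 ratio of the members was -0.19 in females and -0.85 in males, beside 0.04 and 0.02 over all genes. Over the other P450 genes with a level the medians were 0.05 and -0.10. The doses differed between the sexes, and the difference between the ratios of males and females was not tested.

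**Figure D2:**
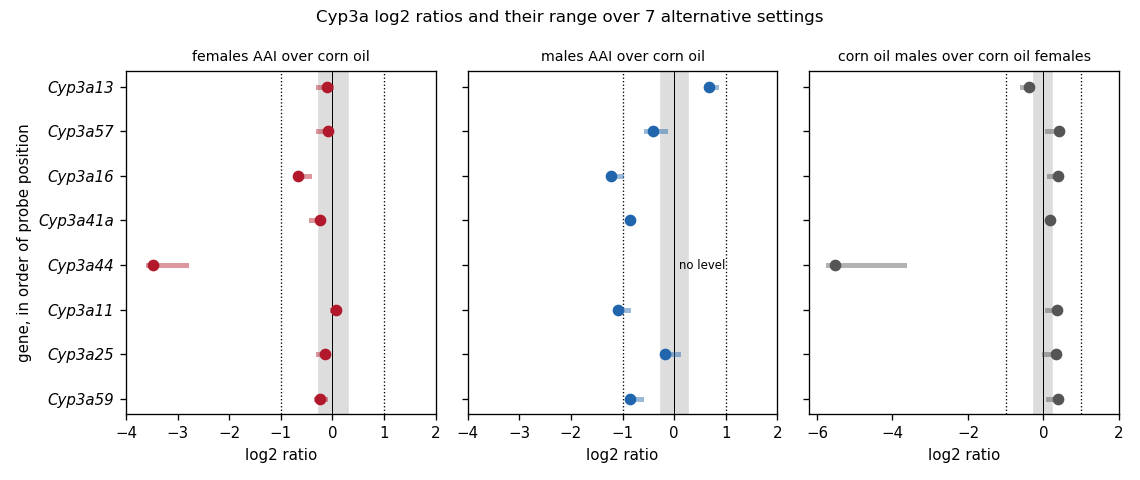
Log2 ratio (x axis) of each Cyp3a gene (y axis, in probe order) for AAI over corn oil in females and in males and for corn oil males over corn oil females. Points are the values of the text, bars the range over 7 alternative settings, the grey band the middle 50% of all genes and dotted lines 2-fold, past which only Cyp3a44 lay in females and in the sex comparison, and Cyp3a11 and Cyp3a16 in males.

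Between the corn oil pools, Cyp3a44 alone passed 2-fold in the direction of lower signal in males, against 1.84% of 30871 genes, and no member was at least 2-fold higher in males, against 3.81%. The other members differed little between the sexes. The probe of Cyp3a41a, listed among female forms, gave a 1.12-fold higher signal in corn oil males, a log2 ratio of 0.17 that is within the SD between probes. Cyp3a11, Cyp3a16, Cyp3a25, Cyp3a57 and Cyp3a59 had ratios between 0.33 and 0.40 towards males. These ratios fell as low as 0.03 to 0.15 under other settings, the lowest being that of Cyp3a25. Cyp3a13 had -0.38.

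As a check of the sex labels of the corn oil arrays, 18 of 20 female-biased liver genes outside the family were at least 2-fold lower in corn oil males, with Cyp2b9 and Cyp2b10 at log2 ratios of -6.70 and -6.22, and 13 of 20 male-biased genes were at least 2-fold higher. The labels of the AAI arrays were not checked by these genes. By this ratio Cyp3a44 was the fourth lowest of 89 P450 genes, after Cyp2b13, Cyp2b9 and Cyp2b10.

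The Cyp3a44 spot of AAI males gave no usable level. The scanner file holds a processed intensity of 45.2 there, equal to the background value, while the mean pixel intensity of the spot was 4800 and its median 4693.5, against 1490, 183.25 and 73.05 on the arrays of corn oil females, AAI females and corn oil males. Of the 8 spots around it, 5 were replaced by the background in the same way, and the median of the 8 was 4405 against 303.5 to 421.6 on the other arrays. Within 10 rows and columns, 29 of 441 spots had been replaced on this array and none on the others, in a band beside the Cyp3a44 spot. Taken as deposited, the spot would give a log2 signal of 5.57 and a ratio of 0.55 over corn oil males, and with the background-subtracted intensity 12.27 and 7.24. Neither is a measurement of Cyp3a44. The same 45.2 stands as the raw intensity of this spot in the series table.

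**Figure D3:**
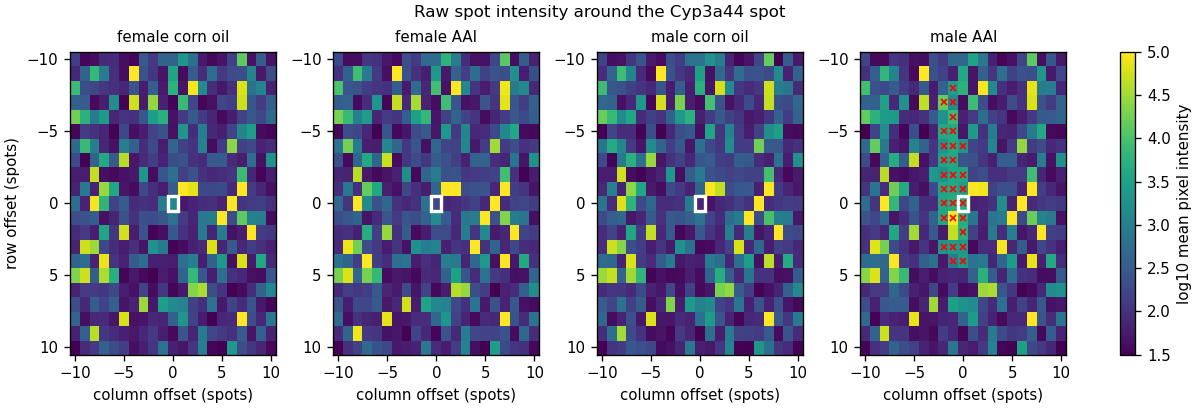
Log10 of the mean pixel intensity before any correction (colour) of the spots within 10 rows and 10 columns of the Cyp3a44 spot (white box) on the 4 arrays, with offsets in spots on both axes. Red crosses mark spots whose processed intensity had been set to the background, of which the array of AAI males has 29 of 441 in this window and the others none.

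Ranked among 90 P450 genes by the log2 ratio in females, Cyp3a44 was the lowest, followed by Cyp1a1 at -1.78, Cyp8b1 at -1.50 and Cyp2b10 at -1.24. The next member was Cyp3a16 in rank 7. In males, among 88 P450 genes, Cyp3a16 ranked 9 and Cyp3a11 14 from the lowest, with Cyp4a12a and Cyp4a12b, male forms, further down at -4.54 and -4.43. At the other end, the female forms Cyp2b9, Cyp2b10 and Cyp2b13 had log2 ratios of 5.28, 4.35 and 3.87 in males. Cyp3a13 ranked 74 of 88.

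The female-biased list as a whole was higher in AAI males, by a median log2 ratio of 2.17 over 18 genes with 11 at least 2-fold higher, among them Cyp2b9 at 5.28. The male-biased list had a median of -1.74 with 12 of 20 at least 2-fold lower, among them Slco1a1 at -5.78 and Elovl3 at -5.71. In females the 2 medians were -0.03 and -0.23. Cyp3a41a, known as a female form, had -0.85 in males. Its probe was not lower in corn oil males (18.37) than in corn oil females (18.20), so the signal of this probe had no female bias here. The probe is listed for Cyp3a41b too, and further matches are possible. By qPCR in other mice, the study reported Cyp3a41 as abundant in females and nearly absent in males. This difference from the array was not resolved. Cyp3a44 had no level to compare in AAI males.

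The genes known to control Cyp3a transcription were described from a list of 16, all of them measured. In females 3 of the 16 were at least 2-fold lower and none higher, and their median log2 ratio was -0.30. Nr1i2, which encodes PXR, had log2 signals of 9.98, 8.76, 9.80 and 9.52 in the order used above, the AAI female array being the low one, with a ratio of -1.22 in females and -0.28 in males. Cebpb, a factor of the acute-phase response, had -1.07 and -0.18. Onecut1, which encodes HNF6, had -1.31 and -0.98, but its other probe gave -0.49 and -0.62. Nr1i3, the gene of CAR, had 0.25 in females and 0.38 in males, Rxra, the partner of both receptors, -0.22 and -0.36, and Hnf4a -0.42 and -0.38. The other Nr1i3 probe gave -0.05 and 0.41. The other Rxra probe gave 0.05 and 0.57, of the opposite sign, and the other Hnf4a probe -0.96 and -0.27. Beside these, Cyp3a11, the usual PXR target, had ratios of 0.07 in females and -1.10 in males.

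In males 1 of the 16 regulators was at least 2-fold lower and 2 were higher, with a median of -0.26. Cux2, a transcription factor of female liver, had log2 signals of 8.40, 8.01, 5.53 and 8.78. The corn oil male array was the low one, and AAI males reached the levels of females, with a ratio of 3.25 in males and -0.39 in females. Its other 2 probes gave 2.11 and 2.17 in males. Ppargc1a, a coactivator of fasting metabolism, had -0.90 in females and 1.29 in males. Vdr, the vitamin D receptor gene, had 0.68 and -1.91 from a dim probe at 5.45, 6.13, 6.65 and 4.74. Bcl6, a repressor that is stronger in male liver, had -0.98 and -0.76. Stat5b, which carries the growth hormone signal, had -0.13 and -0.29. The remaining regulators had ratios between -0.42 and 0.33 in females and between -0.31 and 0.12 in males, these being Nr3c1, Cebpa, Foxa2, Nr1h4 and Nr0b2.

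**Figure D4:**
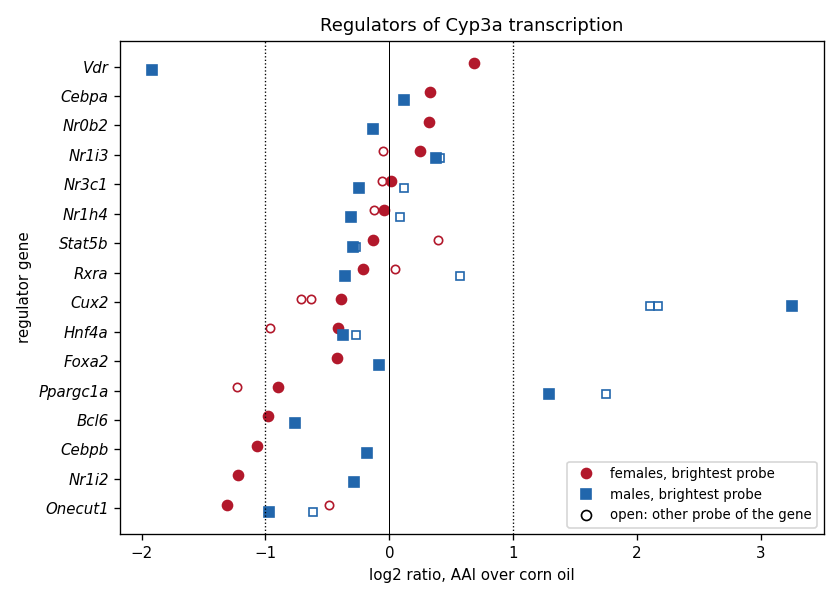
Log2 ratio of AAI over corn oil (x axis) for 16 regulators of Cyp3a transcription (y axis), circles for females and squares for males, filled for the brightest probe and open for the other probes of the gene that were well above background. Dotted lines are 2-fold. By the brightest probe, Nr1i2, Cebpb and Onecut1 lay past 2-fold in females, and Cux2, Ppargc1a and Vdr in males. In females the other Ppargc1a probe lay past it at -1.23, and the other Onecut1 probe, at -0.49, did not.

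Other targets of CAR and PXR were listed beside the members. Over 16 measured genes the median log2 ratio was 0.31 in females, with 2 at least 2-fold lower and 1 higher, and 0.11 in males, with 1 lower and 1 higher. Cyp2b10, the standard CAR target, had -1.24 in females and 4.35 in males. The latter gene is also in the female-biased list. Cyp2c55 had -0.34 and -1.20. None of the 15 genes of P450 electron transfer and heme supply was 2-fold changed by AAI in either sex, with medians of 0.04 and -0.28. Por, the electron donor of the Cyp3a enzymes, had 0.31 and 0.50, and Alas1, the first step of heme synthesis, -0.90 and -0.87.

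The tissue was checked by its markers. All 8 hepatocyte markers were well above background on all arrays, with the log2 of their summed signal between 20.97 and 21.11. This sum is carried by the brightest probes, such as Alb at 19.125 to 19.15. Quantile normalization gives such probes nearly the same value on every array, so the sum could hardly show a change in hepatocyte share. The median ratios of the hepatocyte markers were 0.06 in females and -0.08 in males. None of the 8 hepatocyte markers was 2-fold changed in either sex. Of 8 skeletal muscle markers, all were at least 2-fold higher with AAI in both sexes, with medians of 5.45 and 6.04, and the log2 of their summed signal was 10.34 in corn oil females, 15.27 in AAI females, 12.39 in corn oil males and 18.33 in AAI males, with Acta1 at 4.65, 12.73, 8.80 and 15.60. In AAI males 4 of 6 adrenal and 4 of 6 fat markers were at least 2-fold higher as well, with summed signals of 14.64 and 15.66 against 11.94 and 12.49 in corn oil males, and with Chgb at 12.70 and Ucp1 at 12.89. In AAI females none of the 6 adrenal markers and 1 of 6 fat markers were. Of 7 Kupffer cell markers, 5 were at least 2-fold lower in AAI females and 1 in AAI males, with medians of -1.39 and -0.89 and summed signals of 16.35, 15.28, 16.23 and 15.49. Between the corn oil pools, 7 of 8 skeletal muscle, 3 of 6 adrenal and 2 of 6 fat markers were at least 2-fold higher in males. Markers of other tissues thus moved with the AAI arrays and also differed between the corn oil pools. Their part in the Cyp3a ratios, those between the sexes included, was not tested. In a whole-tissue sample fewer hepatocytes and less RNA per cell cannot be told apart.

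Markers of other cells showed few calls. Of 6 cholangiocyte markers 1 was at least 2-fold lower in females and 1 higher in males, of 6 liver endothelial markers none was in either sex, of 6 stellate cell markers 1 was higher in females and 2 in males, of 7 small intestine markers none was in females and 1 higher in males, and none of the 6 kidney and 6 pancreas markers was in either sex.

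**Figure D5:**
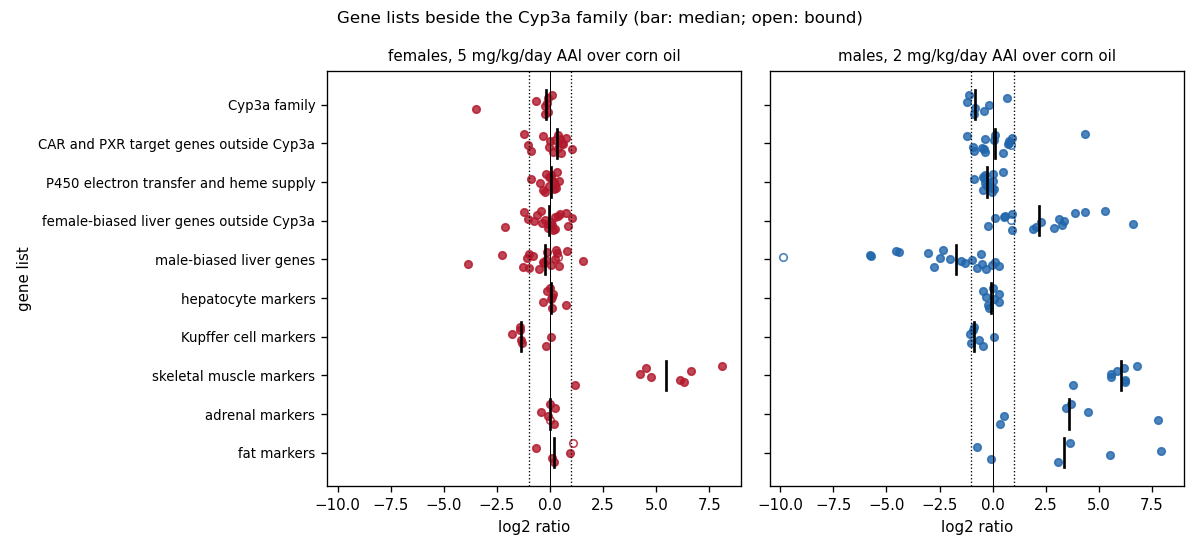
Log2 ratio of AAI over corn oil (x axis) of each gene in the Cyp3a family and in 9 gene lists (y axis), females on the left and males on the right, with the median as a bar and bounds as open circles. The Cyp3a median was -0.19 in females and -0.85 in males, the hepatocyte markers stayed within 2-fold, and the skeletal muscle markers were past 2-fold in both sexes.

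The promoters of the 8 members were compared over the 250 bases before the transcript start, as given by RefSeq on GRCm38.p6. Identity was counted over aligned bases, with gaps and unaligned ends left out. The promoters fell into 2 sets, and pairs across these sets had 29 to 51 gap bases. Cyp3a11, Cyp3a16, Cyp3a41a and Cyp3a44 were 79.6% to 95.9% identical in their 6 pairs and Cyp3a25, Cyp3a57 and Cyp3a59 90.3% to 95.6% in their 3 pairs, while pairs across the 2 sets were 59.9% to 66.7% identical. Cyp3a13 was 61.8% to 65.7% identical to the others. The first set holds Cyp3a11 and Cyp3a16, at least 2-fold lower in AAI males, and Cyp3a44, which had no level there. It also holds Cyp3a41a with a log2 ratio of -0.85 in males, and Cyp3a59 of the second set had -0.86. A link between promoter sequence and these ratios was not tested. Cyp3a16 and Cyp3a44 were the closest pair of the first set at 95.9%. Their signals in corn oil males differed from those in corn oil females by log2 ratios of 0.39 and -5.52. Cyp3a41a and Cyp3a44 are printed here because they are 94.4% identical, with 14 substitutions and no gap, and their log2 ratios in females were -0.23 and -3.47. Capitals mark the bases that differ.
Cyp3a41a, chr5:145720137-145720386, minus strand: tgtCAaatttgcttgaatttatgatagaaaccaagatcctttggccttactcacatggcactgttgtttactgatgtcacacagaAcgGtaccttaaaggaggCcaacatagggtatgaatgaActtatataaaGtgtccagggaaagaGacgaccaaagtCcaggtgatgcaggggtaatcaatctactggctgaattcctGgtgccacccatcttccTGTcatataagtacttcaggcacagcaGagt
Cyp3a44, chr5:145805875-145806124, minus strand: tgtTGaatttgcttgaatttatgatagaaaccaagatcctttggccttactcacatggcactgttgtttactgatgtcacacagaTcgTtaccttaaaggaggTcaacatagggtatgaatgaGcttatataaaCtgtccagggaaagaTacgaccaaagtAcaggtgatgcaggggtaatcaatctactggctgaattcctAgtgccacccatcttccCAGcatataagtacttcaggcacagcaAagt

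Both strands of these windows were searched for AGGTCA and AGTTCA, the half-sites of nuclear receptors such as PXR and CAR, and for TTCNNNGAA, the letters bound by STAT5. With Cyp3a41b added, 9 family promoters were searched. AGGTCA was found in 5 of them, Cyp3a11, Cyp3a25, Cyp3a44, Cyp3a57 and Cyp3a59, and in 14.02% of all 32851 promoters. AGTTCA was found in 3, Cyp3a11, Cyp3a41a and Cyp3a41b, and in 11.84% of all. In the printed pair each gene has 1 half-site that the other lacks, AGGTCA starting 150 bases before the start in Cyp3a44 and AGTTCA, on the opposite strand, 130 bases before it in Cyp3a41a, and each holds 1 of the differing bases. TTCNNNGAA was in none of the 9 and in 7.02% of all promoters. A match is only a run of letters in this window.

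Genes with a pattern like that of 3 members were found by the root mean square difference of their log2 signals after centring each gene on its own mean. For Cyp3a44, over the 3 arrays with a level and 3264 candidate genes, the nearest were Ubtfl1, Ppp1r3g, Hamp2, Mt2 and Rgs16, with differences from 0.69 to 0.93. None of these is close, since the ratios of the nearest, Ubtfl1, were -2.95 in females and -3.87 for corn oil males over females, where Cyp3a44 had -3.47 and -5.52. Hamp2, a hepcidin gene of female liver, had -2.10 and -3.55, and Mt2, a metallothionein, -2.55 and -3.38. In AAI males, where Cyp3a44 has no level, the 5 genes had log2 ratios over corn oil males from 0.37 to 3.24. For Cyp3a11, over 4 arrays and 4104 candidates, the nearest named genes were Cpeb2, Thoc7 and Clock with differences of 0.02 to 0.06, and for Cyp3a41a they were Gm20506, Gm10680, Etnppl and Klk1b24 with 0.09 to 0.10. With 3 or 4 arrays many genes share such a pattern.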

How the data were processed

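Per the file headers, the authors quantified the scans of 1-colour Cy3 arrays (Agilent, design annotated on mm9) with Feature Extraction 10.5.1.1 and deposited the spot, background and processed intensity of every spot, and a table with raw and quantile-normalized intensity. Here, outlier spots and spots replaced by the background (26 of corn oil females, 92 of AAI males) were left out. The files of these 2 arrays hold values with 3 significant digits and 70 gene names that read like dates, so that the names in another file were used, matched by probe. The log2 processed intensity was averaged per probe and quantile normalized over the 4 arrays (56495 of 56605 probes), and the brightest probe stood for a gene. A log2 ratio of 1 (2-fold) was counted for probes that the scanner software marked as well above background on either array of the pair, with a bound in place of a dim value. Between 74.7% and 81.5% of probes were well above background; replicate spots had a median SD of 0.05 to 0.08 and no spot was saturated. The calculation of the fold calls was checked on simulated signals with known folds, all of them taken as well above background. That check did not cover the filter or the bound for dim probes, and it is no test of these data. Tools were Python 3.11.15, numpy 2.4.6, pandas 2.3.3, Biopython 1.88 and limma 3.58.1 (normexp with an offset of 50). Alternatives were other scalings, background and trend corrections, probe and spot rules, and 3-fold. The members and the 16 gene lists, written from general knowledge, were chosen with earlier results of these data known. Named genes were all members, all regulators, at most 3 genes a list by ratio size, the 5 largest ratios among other P450 genes in each comparison, and 5 like-pattern genes per member, not all of them given. Protein sequences were not analysed here.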

Additional observations from a re-analysis of the deposited data

Results flagged for a closer look

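Among the results on Cyp3a regulators, 3 genes moved in opposite directions in the sexes, each by more than the SD between probes in both. The difference was not tested, and the doses differed. The log2 ratio of AAI over corn oil was 0.683 in females and -1.914 in males for Vdr, -0.903 and 1.286 for Ppargc1a, and -0.388 and 3.25 for Cux2. The second Ppargc1a probe gave -1.227 and 1.751. The second Vdr probe was not well above background on any array. Cyp3a11 (0.07 and -1.10) and Cyp3a13 (-0.10 and 0.69) also had opposite signs, but their ratios in females were within the SD between probes.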

How the results depend on the processing

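Of 161 member ratios recomputed under 7 alternatives, 151 moved by less than the SD between probes, 10 moved further and none that had been counted at 2-fold changed sign. Ratios of Cyp3a11 in females and Cyp3a25 in males, both near 0, took the other sign under 2 alternatives each. Cyp3a44 lay between -3.57 and -2.83 in females and between -5.70 and -3.71 between the sexes. Its smallest sizes came with normexp background correction and the offset of 50. The count of members at least 2-fold lower in males, 2, was 1 (Cyp3a16) with scaling to the 75th percentile, 1 with median scaling, and 0 at 3-fold. The count at least 2-fold higher in males, 0, was 1 (Cyp3a44) when replaced spots took the background-subtracted signal. The other counts of members were the same under all 10 alternatives. Over all genes, lower and higher calls in females were 974 and 426, with normexp 321 and 139, at 3-fold 222 and 120, with the mean of probes 912 and 720, and with no filter on dim probes 1429 and 1070. In males they were 1378 and 1060, 637 and 498, 491 and 471, 1567 and 1167, and 2217 and 1782. Between the sexes they were 568 and 1176, 203 and 471, 155 and 370, 723 and 1232, and 1247 and 1815. No paired analysis was possible because each group has 1 array, and none could be left out. With 1 array per group the number of arrays limits every value, and sex and dose cannot be told apart in the AAI pools.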
